A study of Mus musculus with 51 samples.

Results

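Ly6G+ neutrophils taken from blood were compared with Ly6G+ neutrophils taken from bone marrow, in RNA and in open chromatin. The tissue named in the labels chose the samples, which are 12 of the 51 in the series: 5 blood and 3 bone marrow RNA libraries, and 2 blood and 2 bone marrow ATAC-seq libraries. For RNA, cells were sorted from CX3CR1GFP Ly6GCre-tdTomato mice, which carry GFP at the Cx3cr1 locus and Cre with tdTomato at the Ly6G locus. Every mouse had an air pouch under the skin, received 100 µg of zymosan, a particle of yeast cell wall, in the pouch at day 6, and was sampled 4 h later. Blood and bone marrow donors were therefore both challenged at a distant site, and unchallenged mice are not part of the comparison. The labels give no genotype for the ATAC-seq mice and no age, and do not say whether a library came from 1 mouse or from a pool, so p-values measure the spread between libraries. RNA was made into cDNA from small numbers of cells with Smart-seq2, a full-length method that amplifies polyadenylated RNA by PCR. ATAC-seq, in which a transposase cuts and tags open DNA, used 75000 sorted cells per library.

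Neutrophils are made in the bone marrow, where precursors fill 3 kinds of granule in sequence: azurophil granules first, then specific granules with lactoferrin and cathelicidin, then gelatinase granules. The granule genes are transcribed in precursors and fall silent as the cell matures. Mature cells are held in the marrow by the chemokine receptor CXCR4 and leave it under CXCR2 and G-CSF signals, then circulate for hours, ready to respond to microbes and to enter tissue.

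The RNA libraries held 11.511, 15.042, 11.573, 11.955 and 15.622 M counted read pairs in blood, against 18.628, 9.238 and 13.952 M in bone marrow. Each library is named here by the tag and number of its column in the count table, 100-m1, 100-m2, 100-m3, 300-m2 and 300-m3 in blood and 100-m1, 100-m2 and 100-m3 in bone marrow, and values below keep that order. What the tags and numbers mean is not given in the sources used here, and every bone marrow library carries the tag 100, so tag and tissue overlap in part. Levels are in CPM, the counts of a gene per M counted read pairs (M, mega), scaled for library composition. Between 10842 and 20285 genes were detected in blood libraries and between 11029 and 12233 in bone marrow libraries. Bone marrow libraries resembled each other (Spearman rank correlation across genes 0.651 to 0.714) more than blood libraries did (0.492 to 0.594), where genes are not independent replicates. Blood 300-m3 had a rank correlation of 0.635 to 0.665 with the bone marrow libraries, above its 0.492 to 0.569 with the other blood libraries. Blood 100-m1 and 100-m2 stood apart on the other side, with inflammatory and interferon-stimulated genes far above the other 3 blood libraries. Results that rest on these libraries are given with and without them.

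Both tissues carried the neutrophil label. All 15 genes of a neutrophil identity list were detected in each of the 8 libraries, and their summed level was 191365 to 313440 CPM in blood, against 205135 to 263419 CPM in bone marrow. S100a8, a subunit of calprotectin, had 195700, 146500, 127200, 224200 and 127500 CPM in the blood libraries, against 135400, 186600 and 185800 CPM in the bone marrow libraries. Its partner S100a9 had 52130, 40190, 44660, 51580 and 38620 CPM in the blood libraries, against 43300, 48300 and 46810 CPM in the bone marrow libraries. For both genes the tissues overlapped, and the log2 differences of -0.04 and -0.02 turned sign under several alternatives, so no direction is given. Ly6g, the sorting antigen, was at 249 to 610.1 CPM in blood, against 449 to 510 CPM in bone marrow. Markers of other blood cells were low but not absent. The 18 monocyte and macrophage markers summed to 177 to 1249 CPM in blood, with 6 to 12 of them detected in a library, against 5.81 to 167 CPM in bone marrow, with 5 to 8 detected. Cd68 and Ctss, which encode lysosomal proteins, made up most of that sum in each library. Among the defining monocyte genes, the receptor Csf1r had 142, 12.5, 15.8, 39.9 and 0.0482 CPM in the blood libraries, against 0, 0 and 0.114 CPM in the bone marrow libraries, while Ly86 was at 0 in all 5 blood libraries and Ccr2 reached at most 0.207 CPM. The 12 B cell markers summed to 47 to 259 CPM in blood, against 150.4 to 216 CPM in bone marrow. Haemoglobin was high in 1 library: Hbb-bs had 0, 0, 0, 0 and 0 CPM in the blood libraries, against 557, 0.0883 and 0.915 CPM in the bone marrow libraries.

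Across the transcriptome, 2 of 12330 genes tested, or 0.0162%, rose in blood at an adjusted p under 0.05 in edgeR's quasi-likelihood test with Benjamini-Hochberg adjustment, and 0 fell. Before adjustment, 1066 genes were higher in blood (8.65%) and 372 lower (3.02%) at p under 0.05. DESeq2 called 257 genes higher (2.08%) and 71 lower (0.576%), and limma voom called 7 higher (0.0568%) and 36 lower (0.292%), so the number of calls depends on the tool. All 5 blood libraries lay above all 3 bone marrow libraries for 268 genes (2.17%) and below them for 346 (2.81%). A log2 difference above 0 was estimated for 57.6% of genes, with a median over all genes of 0.38, which became 0.18 with another scaling (RLE). The median was 0.12 with only the 2 tissues in the fit. Within the tag-100 libraries it was -0.05, and 48.8% of the 7081 genes tested were higher. By voom 552 genes were higher and 634 lower at an unadjusted p under 0.05. The tilt towards blood thus depends on the fit. The groups described below are read against the shares and the median of 0.38 in the fit reported.

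The 2 genes that rose were Mefv and Irgm1, and both were absent from every bone marrow library. Mefv, on chromosome 16 from 3707215 to 3718124 on the minus strand (mm10), encodes pyrin, an inflammasome sensor whose mutation in people causes familial Mediterranean fever. It had 331, 45.4, 50.4, 30.5 and 151 CPM in the blood libraries, against 0, 0 and 0 CPM in the bone marrow libraries. Every blood library held at least 442 read pairs of Mefv, and the 3 bone marrow libraries held none. Set against a floor of 3 counts over the bone marrow group, Mefv was at least 2111-fold higher in blood (edgeR adjusted p = 0.024, DESeq2 adjusted p = 1.8e-11, voom adjusted p = 0.0023). Irgm1, on chromosome 11 from 48861968 to 48871683 on the minus strand, encodes an interferon-inducible GTPase that acts in autophagy and in killing of engulfed microbes. It had 753, 885, 61.2, 53.9 and 62.3 CPM in the blood libraries, against 0, 0 and 0 CPM in the bone marrow libraries. Blood 100-m1 and 100-m2 were far above the other blood libraries, which lay between 53.9 and 62.3 CPM. Irgm1 was at least 6302-fold higher in blood by the same floor (edgeR adjusted p = 0.049, DESeq2 adjusted p = 1.0e-10), and its voom adjusted p was 0.059. Neither gene had a differential chromatin site within 50000 bp of its start. Both calls were lost when any 1 bone marrow library was left out, and when the fit held only these 2 tissues, and 1 of the 2 was lost without blood 100-m1, 100-m2 or 100-m3. In all, 58 tested genes (0.47%) were detected in 5 of 5 blood and 0 of 3 bone marrow libraries.

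The promoter of Irgm1 is shown because the gene is one of the 2 that rose and carries a tandem match to the interferon response element, spelled GAAA, any 2 bases, GAAA. The letters are the 250 bases upstream of the RefSeq start on GRCm38.p6 (chr11:48871421-48871670, minus strand), 5′ to 3′ in the direction of transcription, with motif matches in capitals.
Irgm1: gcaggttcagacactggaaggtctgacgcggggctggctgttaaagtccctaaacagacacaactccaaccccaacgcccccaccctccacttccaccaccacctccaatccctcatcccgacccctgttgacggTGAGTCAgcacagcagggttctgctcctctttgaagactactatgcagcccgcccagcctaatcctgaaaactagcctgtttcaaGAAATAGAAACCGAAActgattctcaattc
The capitals mark an AP-1 match (TGANTCA) whose first base lies at -115 and 2 overlapping interferon response elements at -30 and -24, where -1 is the last base before the start. An interferon response element was found on either strand in 3.44% of all 32851 RefSeq windows of 300 bases, and an AP-1 match in 7.81%. A match describes letters, not binding.

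**Figure D1:**
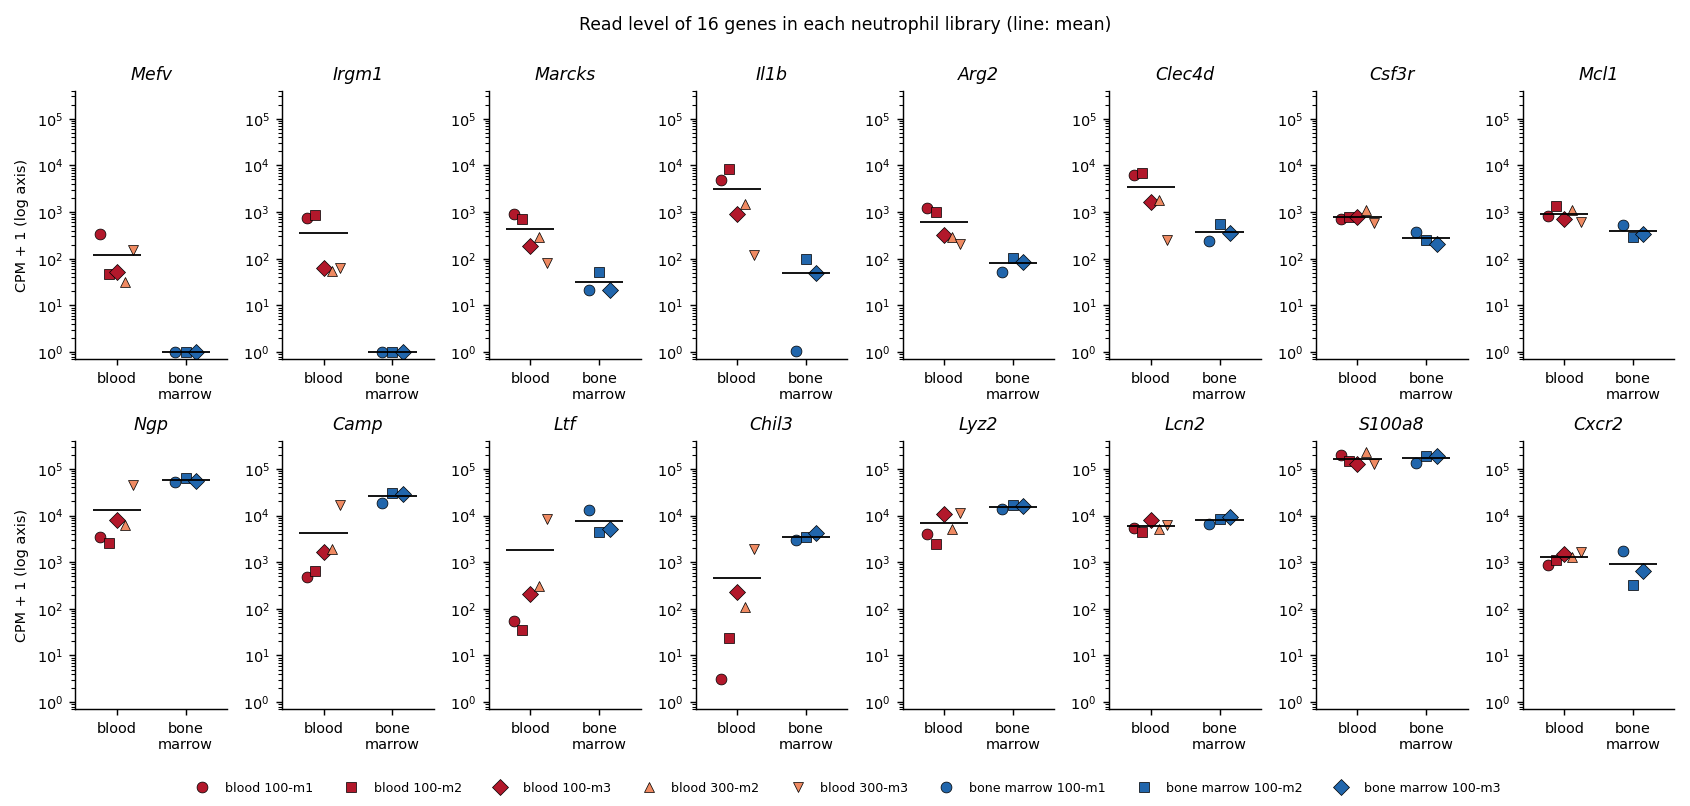
Levels of 16 genes in each of the 5 blood (left, red) and 3 bone marrow (right, blue) libraries, as CPM + 1 on a log axis, with the group mean as a line. Mefv and Irgm1 are at 0 CPM in all 3 bone marrow libraries, and blood 300-m3 (pale, pointing down) lies with bone marrow for Ngp, Camp, Ltf and Chil3.

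Several genes were higher in all 5 blood libraries without passing the adjusted test. Lack of overlap between the tissues was one of the rules that chose genes, so for genes so chosen it is no support. Of all genes tested 2.17% were higher in all 5 blood libraries and 2.81% lower. Marcks, a membrane-bound substrate of protein kinase C that links to actin, had 928, 702, 188, 288 and 81.3 CPM in the blood libraries, against 20.5, 51.5 and 20.1 CPM in the bone marrow libraries. Its log2 difference was 3.83 ± 0.94 (SE), with an edgeR adjusted p of 0.42 and a DESeq2 adjusted p of 0.002. Il1b, the pro-inflammatory cytokine that inflammasomes process, had 4844, 8225, 890.2, 1457 and 119 CPM in the blood libraries, against 0.043, 96.5 and 47.5 CPM in the bone marrow libraries, a log2 difference of 6.02 ± 1.50 (SE) at an edgeR adjusted p of 0.42. Lowest blood library and highest bone marrow library were close for Il1b, at 119 and 96.5 CPM. Arg2, the mitochondrial arginase, had 1238, 1012, 319.8, 285 and 210.4 CPM in the blood libraries, against 52.3, 103 and 82.2 CPM in the bone marrow libraries, a log2 difference of 2.96 ± 0.78 (SE). Acod1, which makes itaconate, had 3608, 6399, 154, 155 and 224 CPM in the blood libraries, against 69.8, 28.9 and 70.9 CPM in the bone marrow libraries. Slfn4, a myeloid Schlafen gene with near copies in the genome that could share reads, had 11350, 18770, 1291, 1442 and 1125 CPM in the blood libraries, against 923, 962 and 732 CPM in the bone marrow libraries. For Acod1 and Slfn4 the mean rested on blood 100-m1 and 100-m2, while the other 3 blood libraries were nearer to bone marrow but still above it. Fgl2, a membrane prothrombinase of myeloid cells, had 280.5, 801, 47.5, 289 and 41.4 CPM in the blood libraries, against 7.14, 28.1 and 11.6 CPM in the bone marrow libraries, again with no overlap. Il15ra, a receptor chain for interleukin 15, had 0.701, 119, 29.2, 0.896 and 63.9 CPM in the blood libraries, against 0, 0 and 0 CPM in the bone marrow libraries, so 2 blood libraries were near 0. Nek6, a mitotic kinase, had 36.5, 174, 5.96, 52.9 and 4.24 CPM in the blood libraries, against 0.086, 0.177 and 0.572 CPM in the bone marrow libraries.

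Of the receptors that govern release from the marrow, the G-CSF receptor separated the tissues and the chemokine receptors did not. Csf3r, the G-CSF receptor, had 695, 786, 799, 1119 and 572 CPM in the blood libraries, against 378, 254 and 210.1 CPM in the bone marrow libraries. All 5 blood libraries were above all 3 bone marrow libraries, with a log2 difference of 1.50 ± 0.62 (SE) (edgeR unadjusted p = 0.025, adjusted p = 0.42). Cxcr2, the receptor for the CXC chemokines that draw neutrophils into blood, had 863, 1129, 1488, 1271 and 1621 CPM in the blood libraries, against 1739, 319 and 658 CPM in the bone marrow libraries. The groups overlapped because 1 bone marrow library exceeded all blood libraries. Cxcr4, the receptor that holds neutrophils in the marrow, was low in both tissues, with 74.3, 9.71, 5.72, 25.4 and 5.98 CPM in the blood libraries, against 0.688, 15.3 and 5.95 CPM in the bone marrow libraries. Of 13 chemoattractant receptors tested, 11 had a higher and 2 a lower estimate in blood, with 2 at an unadjusted p under 0.05 and a median log2 difference of 1.09. Of 20 adhesion and migration genes, 8 were higher and 12 lower, with a median of -0.35. Among them Cd44, the hyaluronan receptor, had 1525, 1441, 347, 679.6 and 417 CPM in the blood libraries, against 314, 419 and 248 CPM in the bone marrow libraries.

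Specific granule genes ran the other way. Of 15 tested, 14 had a lower estimate in blood and 1 a higher one, with a median log2 difference of -1.05 beside 0.38 over all genes. By edgeR 0 of them passed the adjusted test, 2 were lower at an unadjusted p under 0.05 (background 3.02%), DESeq2 called 0 and voom called 1. Their summed level was 15347, 12788, 32579, 22832 and 95029 CPM in blood, against 111809, 122603 and 113372 CPM in bone marrow. No blood library reached the bone marrow range, but blood 300-m3 came close to it. Without that library 15 of 15 estimates were lower, 7 at an unadjusted p under 0.05, and the median was -2.06. Without blood 100-m1 and 100-m2, 11 were lower and 4 higher, with a median of -0.51. In these bulk libraries fewer immature cells and less granule RNA per cell cannot be told apart.

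Ngp, the neutrophilic granule protein, had 3406, 2578, 8104, 6192 and 44900 CPM in the blood libraries, against 52120, 63350 and 53820 CPM in the bone marrow libraries. The groups did not overlap, and its log2 difference was -2.11 ± 0.83 (SE) (edgeR unadjusted p = 0.019, adjusted p = 0.42). Camp, the cathelicidin antimicrobial peptide, had 471, 643, 1611, 1916 and 16630 CPM in the blood libraries, against 18900, 30580 and 28610 CPM in the bone marrow libraries, a log2 difference of -2.61 ± 1.60 (SE). Ltf, the iron-binding lactoferrin, had 54.1, 34.5, 211, 313 and 8530 CPM in the blood libraries, against 13440, 4429 and 5259 CPM in the bone marrow libraries. For Ltf 4 of 5 blood libraries were far below bone marrow and blood 300-m3 was inside the bone marrow range. Chil3, a chitinase-like protein of late precursors, had 2.1, 23, 229, 109 and 1872 CPM in the blood libraries, against 2930, 3441 and 4137 CPM in the bone marrow libraries and a log2 difference of -2.97 ± 1.49 (SE), with a voom adjusted p of 0.034 and an edgeR adjusted p of 0.44. Lyz2, lysozyme, which is stored in several granule types, had 3961, 2411, 10980, 5167 and 11460 CPM in the blood libraries, against 13450, 17180 and 15960 CPM in the bone marrow libraries, with no overlap and a log2 difference of -1.19 ± 0.56 (SE). Pglyrp1, a peptidoglycan-binding granule protein, had 689, 531, 1912, 1985 and 1783 CPM in the blood libraries, against 2113, 2481 and 2372 CPM in the bone marrow libraries, also with no overlap. By contrast Lcn2, the siderophore-binding lipocalin, had 5476, 4415, 8077, 5241 and 6162 CPM in the blood libraries, against 6625, 8482 and 9157 CPM in the bone marrow libraries, and Mmp8, the neutrophil collagenase, had 4275, 3425, 10840, 6337 and 8751 CPM in the blood libraries, against 8433, 7677 and 7673 CPM in the bone marrow libraries. Both overlapped between the tissues. Cd177, a surface protein stored in specific granules, had 257, 67.4, 823, 309 and 2013 CPM in the blood libraries, against 2620, 929 and 1010 CPM in the bone marrow libraries, with overlap.

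Of the other granule classes, azurophil genes summed to 3972, 2530, 11043, 5290 and 11499 CPM in blood, against 13518, 17243 and 15973 CPM in bone marrow, with no overlap. Nearly all of that sum was Lyz2, described above. Only 4 of the 10 azurophil genes passed the filter on low counts, with 2 higher and 2 lower estimates, 1 lower at an unadjusted p under 0.05, and a median of -0.22, which was -1.29 over the 3 tested within the tag 100 and -1.91 with the tag as a term. Elane and Mpo, the classical azurophil genes of early precursors, were at or near 0 in both tissues. Gelatinase granule genes had 8 higher and 4 lower estimates of 12, with a median of 0.37, at the median of all genes, although Pglyrp1 of that list was lower without overlap. Whether the classes differ from each other was not tested. Retnlg, a resistin-like protein of mature neutrophils, had 19910, 11580, 18020, 22540 and 10090 CPM in the blood libraries, against 9460, 12530 and 11550 CPM in the bone marrow libraries. Mmp9, gelatinase B, had 951, 726, 1330, 1223 and 1811 CPM in the blood libraries, against 3077, 1452 and 1259 CPM in the bone marrow libraries, with overlap. Cebpe, the transcription factor that switches on specific granule genes, was detected in 3 of 5 blood libraries, with 0, 0, 5.12, 0.069 and 42.5 CPM in the blood libraries, against 42.2, 3.8 and 22.5 CPM in the bone marrow libraries. Its highest blood value was again in 300-m3, and the groups overlapped.

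The 3 promoters below belong to granule genes that had a lower estimate in blood and lay in sites that the authors listed as less accessible in blood. Each shows 250 bases upstream of the RefSeq start on GRCm38.p6, 5′ to 3′ in the direction of transcription: Ltf at chr9:111019042-111019291 on the plus strand, Ngp at chr9:110419558-110419807 on the plus strand and Camp at chr9:109849457-109849706 on the minus strand. Capitals mark matches to the C/EBP motif TTGCNNAA on either strand.
Ltf: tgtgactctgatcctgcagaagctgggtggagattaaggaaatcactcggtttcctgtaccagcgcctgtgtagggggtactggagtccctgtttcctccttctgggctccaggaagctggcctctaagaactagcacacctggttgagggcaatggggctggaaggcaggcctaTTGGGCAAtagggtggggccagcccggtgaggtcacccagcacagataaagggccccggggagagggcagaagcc
Ngp: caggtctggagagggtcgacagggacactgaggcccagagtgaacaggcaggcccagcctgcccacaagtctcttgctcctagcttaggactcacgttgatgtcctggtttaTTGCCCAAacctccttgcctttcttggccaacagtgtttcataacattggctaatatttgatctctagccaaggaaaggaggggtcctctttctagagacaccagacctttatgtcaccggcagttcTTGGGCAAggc
Camp: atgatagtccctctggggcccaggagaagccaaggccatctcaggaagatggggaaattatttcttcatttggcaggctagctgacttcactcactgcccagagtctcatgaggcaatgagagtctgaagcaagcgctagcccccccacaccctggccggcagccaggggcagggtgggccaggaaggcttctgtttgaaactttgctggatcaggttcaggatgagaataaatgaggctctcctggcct
The Ltf window holds a C/EBP match at -75 and the Ngp window holds 2, at -138 and -11. None of the 6 motifs searched matched the Camp window. A C/EBP match was found in 10.8% of all RefSeq windows.

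**Figure D2:**
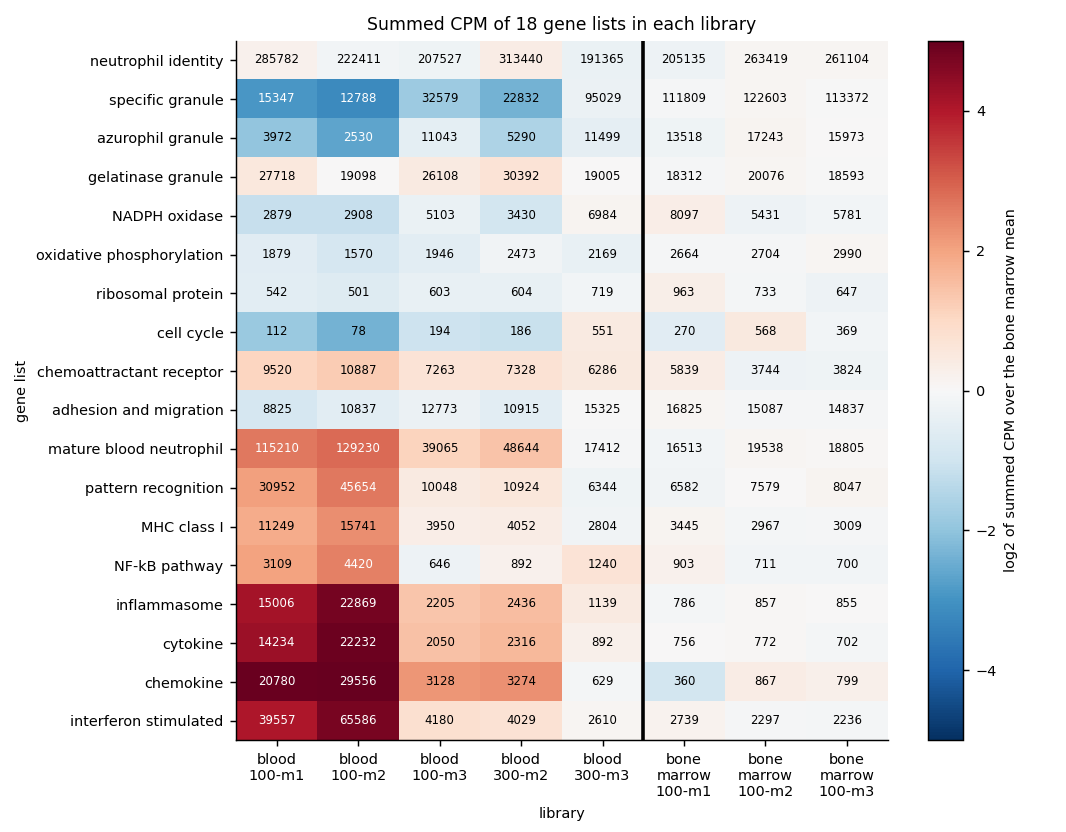
Summed CPM of 18 gene lists in each library (numbers), coloured by log2 of the sum over the bone marrow mean, with the 5 blood libraries left of the line and the 3 bone marrow libraries right of it. Blood 100-m1 and 100-m2 are highest for interferon-stimulated genes, at 39557 and 65586 CPM, and blood 300-m3 has a specific granule sum of 95029 CPM, near the bone marrow libraries.

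Genes known from mature blood neutrophils were higher in blood. All 22 of the list had a higher estimate in blood, 17 of them at an unadjusted p under 0.05 where the background was 8.65%, with a median log2 difference of 1.88. By edgeR 0 passed the adjusted test and DESeq2 called 4. All 22 estimates were also higher without blood 300-m3, without blood 100-m1 and 100-m2 (8 at an unadjusted p under 0.05, median 0.93), and with only the 300-tag blood libraries (4, median 0.97). The lists were drawn up with earlier results known, so these counts describe the genes and give no independent support.

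Clec4d, a C-type lectin that senses fungal mannans, had 6364, 6918, 1665, 1816 and 256 CPM in the blood libraries, against 236, 553 and 348 CPM in the bone marrow libraries. Srgn, the proteoglycan core of granules, had 26200, 26780, 3296, 3775 and 1111 CPM in the blood libraries, against 1129, 1745 and 1593 CPM in the bone marrow libraries. In both genes 4 of 5 blood libraries were above bone marrow, and 300-m3 was within its range or just below it. Wfdc17, a small secreted inhibitor-like protein with a near copy in the genome, had 6046, 11220, 4197, 9482 and 830.2 CPM in the blood libraries, against 904, 1715 and 1303 CPM in the bone marrow libraries. Ccl6, a CC chemokine of myeloid cells, had 4254, 3800, 2963, 3086 and 164 CPM in the blood libraries, against 129, 526 and 464 CPM in the bone marrow libraries. Fth1, the ferritin heavy chain, had 34740, 30690, 7413, 5592 and 4558 CPM in the blood libraries, against 4793, 3870 and 4937 CPM in the bone marrow libraries. Mxd1, an antagonist of MYC known from maturing granulocytes, had 1960, 3008, 842, 1033 and 1169 CPM in the blood libraries, against 916, 569 and 585 CPM in the bone marrow libraries. For Wfdc17, Ccl6 and Fth1 blood 300-m3 was again in or just below the bone marrow range and the other 4 blood libraries were above it, while for Mxd1 the 1 blood library that overlapped was 100-m3.

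Some regulators of survival and of inducible transcription lay higher in all 5 blood libraries. Mcl1, the BCL2 relative that neutrophils need to stay alive, had 811, 1327, 723, 1080 and 616 CPM in the blood libraries, against 538, 294 and 341 CPM in the bone marrow libraries, with no overlap and a log2 difference of 1.22 ± 0.56 (SE). Cebpb, the C/EBP factor of emergency granulopoiesis, had 106, 148, 83.5, 55.8 and 37.1 CPM in the blood libraries, against 25.4, 33.3 and 33 CPM in the bone marrow libraries, with no overlap. Ier5, an immediate early gene, had 262, 403, 106, 189.6 and 80.9 CPM in the blood libraries, against 33.7, 46.3 and 35 CPM in the bone marrow libraries, and Relb, a subunit of the alternative NF-kB pathway, had 33.2, 38.8, 12.5, 6.21 and 40.1 CPM in the blood libraries, against 0.215, 0 and 1.26 CPM in the bone marrow libraries. None of these 4 passed the edgeR test (adjusted p 0.42 to 0.56), and the DESeq2 adjusted p was 0.017 for Relb. Bcl2l11, which encodes the death-promoting BIM, had 201, 186, 10.1, 2.48 and 0.0482 CPM in the blood libraries, against 1.89, 0 and 0.172 CPM in the bone marrow libraries. Bcl2l1, which encodes BCL-XL, had 163, 75.9, 38.5, 3.1 and 51.6 CPM in the blood libraries, against 1.68, 4.51 and 3.37 CPM in the bone marrow libraries. Of 23 survival and death genes tested, 17 were higher and 6 lower, with a median of 1.14. All blood libraries lay above all bone marrow libraries for 1 of these genes, Mcl1, and below them for 1. Over all genes tested these shares were 2.17% and 2.81%. Without blood 100-m1 and 100-m2, 11 were higher and 12 lower, 0 and 4 of them at an unadjusted p under 0.05, with a median of -0.69. Of 23 immediate early genes 20 were higher, 5 at an unadjusted p under 0.05, and of 20 genes of the NF-kB pathway 16 were higher, 4 at an unadjusted p under 0.05. In these lists 1 and 2 genes were higher in blood with no overlap, and 0 were lower with no overlap. Without the same 2 libraries 15 of 23 and 11 of 20 were higher, 0 and 1 of them at an unadjusted p under 0.05.

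Interferon-stimulated genes had higher estimates in blood, with by far the highest levels in 2 libraries. All 47 tested had a higher estimate, 25 at an unadjusted p under 0.05, with a median log2 difference of 3.49. Under RLE scaling 46 of 47 were higher. With only the 2 tissues in the fit 43 were tested and 43 were higher, 15 at an unadjusted p under 0.05, with a median of 3.06. Irgm1 was the 1 member called by edgeR, and DESeq2 called 10. The list summed to 39557, 65586, 4180, 4029 and 2610 CPM in blood, against 2739, 2297 and 2236 CPM in bone marrow. Without blood 100-m1 and 100-m2, 31 of 46 were higher, with a median of 0.77, and at an unadjusted p under 0.05 3 were higher and 2 lower. In that fit 52.8% of all genes were higher and 4.70% were higher at an unadjusted p under 0.05, so the 3 of 46 are near the background. Rtp4, an interferon-induced transporter chaperone, had 2178, 3642, 239, 571 and 93.3 CPM in the blood libraries, against 51.1, 67.3 and 114 CPM in the bone marrow libraries. Gbp2, a guanylate-binding protein that attacks pathogen vacuoles, had 891, 2498, 30.6, 17.9 and 0 CPM in the blood libraries, against 0, 0.177 and 0.0572 CPM in the bone marrow libraries. Ifit1, which binds viral RNA that lacks proper capping, had 2085, 6512, 0, 13.4 and 0 CPM in the blood libraries, against 0.516, 29.5 and 0 CPM in the bone marrow libraries. In the other 3 blood libraries Gbp2 and Ifit1 were between 0 and 30.6 CPM. Cxcl10, an interferon-induced chemokine, had 4169, 4072, 0, 0 and 0 CPM in the blood libraries, against 52.1, 0 and 0.0572 CPM in the bone marrow libraries, so the other 3 blood libraries held none.

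Rsad2, which encodes the antiviral enzyme viperin, was chosen after its values were seen, because its promoter lay in a site that was more accessible in blood. It had 3459, 5491, 17, 55.6 and 0.0482 CPM in the blood libraries, against 33.5, 3.18 and 0.0572 CPM in the bone marrow libraries, a log2 difference of 7.20 ± 2.37 (SE) (edgeR unadjusted p = 0.006). The 250 bases upstream of its RefSeq start (chr12:26456453-26456702, minus strand, GRCm38.p6) are given 5′ to 3′ in the direction of transcription.
Rsad2: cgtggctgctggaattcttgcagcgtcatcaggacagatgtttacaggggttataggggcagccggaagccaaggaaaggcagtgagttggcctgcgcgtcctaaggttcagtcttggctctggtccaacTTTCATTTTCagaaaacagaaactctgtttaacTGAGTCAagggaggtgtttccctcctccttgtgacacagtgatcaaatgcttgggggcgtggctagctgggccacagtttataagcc
The first run of capitals is an interferon response element read on the opposite strand, at -120, and the second is an AP-1 match at -87.

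Cytokine, chemokine and pattern recognition genes followed the same 2 libraries. Of 18 cytokine genes tested, 17 were higher in blood, 8 at an unadjusted p under 0.05, with a median of 5.02 that was 2.72 without blood 100-m1 and 100-m2. Of 10 chemokine genes, 10 were higher, 7 at an unadjusted p under 0.05, with a median of 6.58 that was 0.82 without them. The filter on low counts used all 15 libraries, so which members were tested depends on the other tissues too. With only the 2 tissues in the fit, 12 cytokine genes were tested, 11 higher, with a median of 3.55. In that fit 7 chemokine genes were tested, 7 higher, with a median of 6.62. Ccl3 and Ccl4, chemokines that recruit other leukocytes, had 1944, 3498, 29.2, 30.1 and 14.6 CPM in the blood libraries, against 0, 30.4 and 4 CPM in the bone marrow libraries for Ccl3 and 7513, 11650, 36.8, 0 and 0.241 CPM in the blood libraries, against 0, 18.5 and 17.1 CPM in the bone marrow libraries for Ccl4. Il1rn, the natural blocker of the interleukin 1 receptor, had 7650, 10710, 755, 372 and 205 CPM in the blood libraries, against 310.5, 337 and 308 CPM in the bone marrow libraries, and Il18, another inflammasome substrate, had 332, 624, 0.298, 3.79 and 0 CPM in the blood libraries, against 0, 0 and 0 CPM in the bone marrow libraries. Apart from blood 100-m1 and 100-m2, and from Il1rn at 755 CPM in blood 100-m3, these 4 genes were near or within the bone marrow range. Of 26 pattern recognition genes, 23 were higher, 6 at an unadjusted p under 0.05, with a median of 1.48 that was 0.53 without them. Clec7a, which encodes dectin-1, the receptor for the beta-glucan of zymosan, had 769, 1961, 430.5, 386 and 90.5 CPM in the blood libraries, against 28.1, 114 and 18.8 CPM in the bone marrow libraries. Trem1, an amplifier of inflammatory signals, had 4061, 8783, 171, 438 and 252 CPM in the blood libraries, against 483, 202 and 253 CPM in the bone marrow libraries, and Cd14, the lipopolysaccharide co-receptor, had 5486, 9645, 575, 290 and 262 CPM in the blood libraries, against 999.6, 229 and 509.5 CPM in the bone marrow libraries. Without blood 100-m1 and 100-m2 the Trem1 and Cd14 estimates were lower in blood, at -0.13 and -0.64, while for Clec7a 2 of the 3 blood libraries left lay above bone marrow.

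Inflammasome genes had 12 higher and 1 lower estimate of 13 tested, 7 at an unadjusted p under 0.05, and a median of 3.63, or 0.98 without blood 100-m1 and 100-m2. Apart from Mefv, Casp4, the cytosolic lipopolysaccharide sensor, had 891, 1615, 299, 312 and 316 CPM in the blood libraries, against 271, 263 and 225 CPM in the bone marrow libraries, with no overlap. Nlrp3, the sensor of the best known inflammasome, had 147, 120.2, 5.78, 20 and 2.85 CPM in the blood libraries, against 1.85, 0.0883 and 3.09 CPM in the bone marrow libraries. Monocyte markers moved with these groups: their sums were 1200.2 and 1249 CPM in blood 100-m1 and 100-m2, with 247, 496 and 177 CPM in the other blood libraries, against 5.81, 167 and 154 CPM in bone marrow. Of the 18 markers 6 were tested, and all 6 had a higher estimate in blood, 4 at an unadjusted p under 0.05. The median log2 difference was 8.33, or 5.64 over the 4 tested within the tag 100. By edgeR 0 passed the adjusted test and DESeq2 called 3. The 10 platelet markers summed to 53.1, 89.2, 2.44, 15.5 and 19.1 CPM in blood, against 0.086, 2.56 and 9.43 CPM in bone marrow, and the 11 dendritic cell markers to 68.9, 48.9, 5.96, 3.24 and 34.0 CPM in blood, against 132, 3.18 and 0.172 CPM in bone marrow. Ctss, a cathepsin of antigen-presenting cells on the monocyte marker list, had 422, 803, 1.79, 64.4 and 0.241 CPM in the blood libraries, against 1.59, 0.0883 and 0.629 CPM in the bone marrow libraries. The part of any of these cells in the inflammatory genes was not tested.

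Of the housekeeping groups, 2 had mostly lower estimates in blood, with small differences, and 2 were evenly split. Of 33 oxidative phosphorylation genes, 27 were lower in blood and 6 higher, with a median of -0.62, and 0 had an unadjusted p under 0.05 in edgeR. DESeq2 called 0 and voom called 0. Ndufb7, a complex I subunit, had 21.7, 37.4, 72.9, 159 and 152 CPM in the blood libraries, against 270.2, 209 and 218 CPM in the bone marrow libraries, with no overlap. Of 37 ribosomal protein genes, 27 were lower and 10 higher, with a median of -0.50 and 1 lower at an unadjusted p under 0.05. Of 18 glycolysis genes 9 were higher and 9 lower (median -0.04), and of 20 translation and secretion genes 10 were higher and 10 lower (median 0.13). Among 8 NADPH oxidase genes 4 were higher and 4 lower, a split that was 1 and 7 under RLE scaling and 2 and 6 without blood 300-m3. Its membrane subunits Cybb and Cyba, which produce superoxide with the cytosolic factors, had 177, 69.9, 182, 154 and 931 CPM in the blood libraries, against 1244, 809 and 825 CPM in the bone marrow libraries for Cybb and 273, 252, 431, 675 and 2077 CPM in the blood libraries, against 2435, 1274 and 1795 CPM in the bone marrow libraries for Cyba. For both genes, as for Ltf, blood 300-m3 lay in the bone marrow range and the other 4 blood libraries lay below it. Arhgdib, a regulator of small GTPases, had 1734, 2064, 3708, 4052 and 4843 CPM in the blood libraries, against 5208, 8164 and 7704 CPM in the bone marrow libraries, with no overlap. Ddost of the evenly split translation and secretion list, a subunit of the oligosaccharyl transferase, had 0, 1.36, 0, 0 and 0 CPM in the blood libraries, against 63.9, 2.3 and 26.3 CPM in the bone marrow libraries. It was seen in 1 of 5 blood libraries, with adjusted p = 0.42 in edgeR, 0.023 in DESeq2 and 0.034 in voom.

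**Figure D3:**
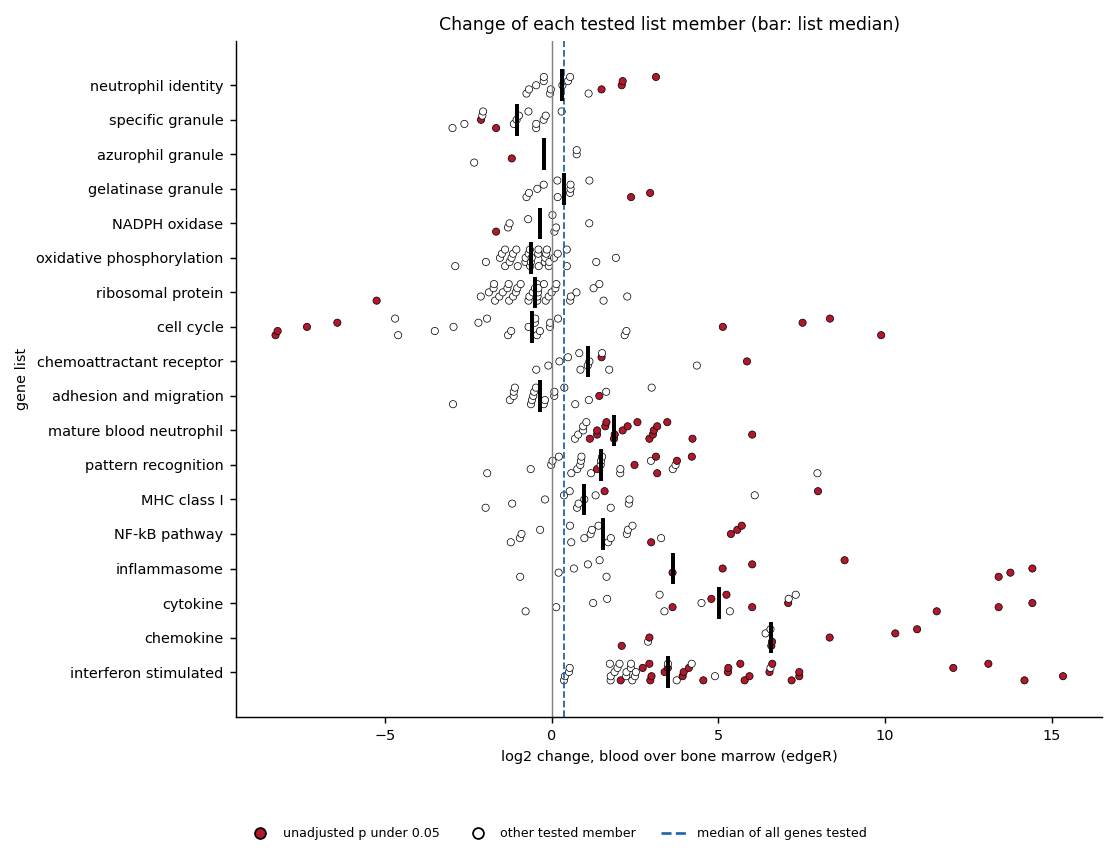
Log2 difference, blood over bone marrow, of each tested member of 18 lists from the edgeR fit, filled where the unadjusted p was under 0.05, with the list median as a bar and the median of all genes (0.38) as a dashed line. All 22 mature blood neutrophil and all 47 interferon-stimulated genes lie right of 0, and 14 of 15 specific granule genes lie left of it.

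Open chromatin differed in both directions. In the authors' deposited lists, 559 of 47164 merged sites (1.19%) were more accessible in blood and 383 (0.812%) less accessible, and every listed site was identical to a merged one. The lists give the -log10 of an adjusted p and no fold change or value per library, so the spread between the 2 libraries per tissue cannot be shown. At -log10 values of 3 or more there were 273 and 199 sites. The 2 directions differed in position. Of sites more accessible in blood 7.51% lay within 1000 bp of a gene start, against 27.2% of sites less accessible and 26.5% of all merged sites. Introns held 49.6%, 36.6% and 37.5% of them.

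RNA near more accessible sites was higher in blood more often than near all sites, while near less accessible sites it was higher less often. Among genes with the nearest start within 50000 bp of a site more accessible in blood, 317 were tested, 73.8% had a higher estimate in blood, and the median log2 difference was 1.05. Near sites less accessible in blood 226 were tested, 43.4% were higher, and the median was -0.30. Of them 18 (7.96%) were higher and 12 (5.31%) lower at an unadjusted p under 0.05, beside 8.05% and 3.02% near any merged site. Near any merged site 10266 were tested, 56.2% were higher, and the median was 0.29. At gene starts the medians were 4.53 over 24 genes, -0.93 over 63 genes and 0.16 over 7751 genes. Without blood 100-m1 and 100-m2 the median within 50000 bp of more accessible sites was 0.48, and it was not computed at gene starts. Genes are no replicates, so these medians carry no test.

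**Figure D4:**
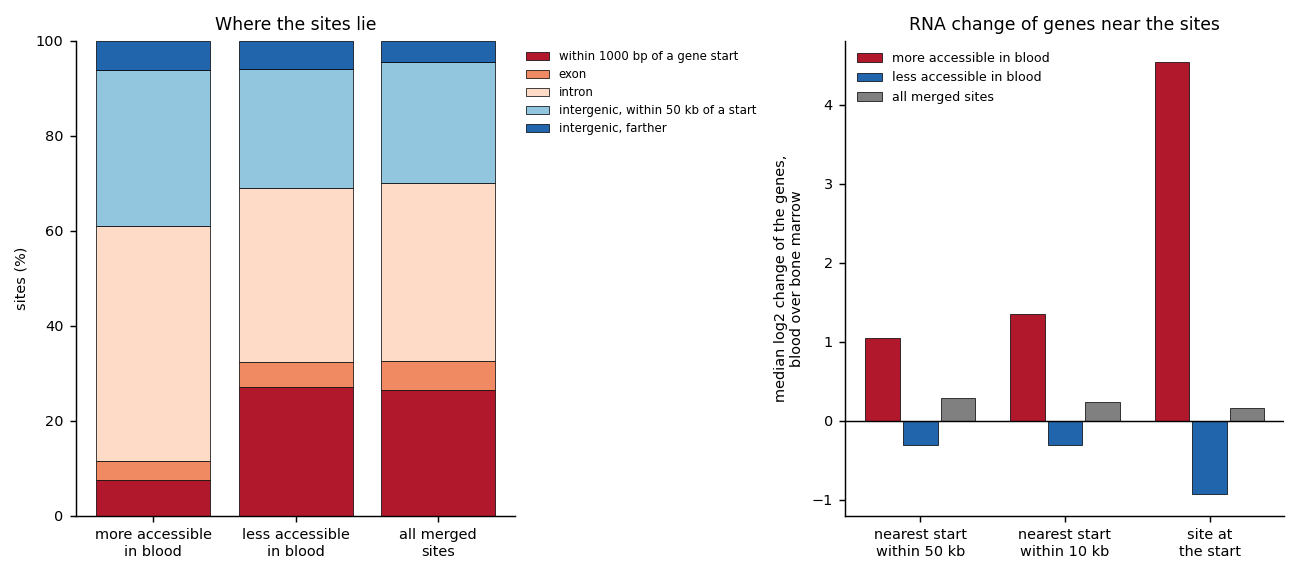
Left, share of sites by position for sites more accessible in blood, less accessible in blood and all merged sites. Right, median log2 RNA difference, blood over bone marrow, of genes near the same 3 kinds of site: at gene starts it was 4.53, -0.93 and 0.16.

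Less accessible sites lay at specific granule genes and at some other neutrophil genes. Of 15 specific granule genes, 8 had a site less accessible in blood within 50000 bp of the start, and 1, Ltf, also had a more accessible one. Of all 12330 genes tested, 3.50% had a less and 4.85% a more accessible site at that distance. Of the other granule lists, 1 of 10 azurophil and 1 of 12 gelatinase genes had a less accessible one. So did 5 of 15 neutrophil identity genes (S100a8, S100a9, Ly6g, Cxcr2 and Retnlg), with a more accessible one for 3. Of 13 chemoattractant receptors 4 had a less accessible one (Cxcr2, Cxcr1, Ltb4r1 and Ccrl2) and 3 a more accessible one. These lists share genes. Sites at the gene start itself were listed for Ltf (-log10 adjusted p 3.96), Camp (2.25), Ngp (1.57), Cd177 (3.42), Anxa3 (5.25) and Ltb4r1 (3.84) in the authors' deposited lists. The site at the Ltf start spans chr9:111018948-111019528, that at the Camp start chr9:109849367-109849958 and that at the Ngp start chr9:110419510-110420027, and each covers the promoter printed above. Ngp had 2 further sites, 3.83 and 5.41 kb downstream of its start. The Mmp8 site was 35.2 kb from its start (5.25). S100a8, whose RNA overlapped between the tissues, had 4 less accessible sites within 50000 bp, of which the highest -log10 value was 5.97. Birc3, an inhibitor of apoptosis, had a less accessible site at its start (8.51), while its RNA was 213, 395, 50.5, 186 and 123 CPM in the blood libraries, against 55.8, 52.5 and 61 CPM in the bone marrow libraries. There RNA and chromatin pointed in opposite directions, with overlapping RNA values.

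The less accessible sites with the smallest adjusted p included those at Thbs1, the gene of thrombospondin 1, an adhesive glycoprotein. It had 5 less accessible sites in the authors' deposited lists, with -log10 adjusted p values of 29.7, 20.0, 8.24, 7.27 and 4.89, and the first of these spans chr2:118127286-118128046. Thbs1 RNA was not lower throughout: it had 13770, 13710, 113, 175 and 1827 CPM in the blood libraries, against 802, 1147 and 1157 CPM in the bone marrow libraries. Blood 100-m1 and 100-m2 were above bone marrow, 100-m3 and 300-m2 below it, and 300-m3 above it, and the log2 difference of 2.52 ± 1.42 (SE) became -0.52 without 100-m1 and 100-m2. The next gene in order of adjusted p was Il1r2, the decoy receptor of interleukin 1, with a site at 20.8 that lay 52102 bp from its start. Il1r2 RNA had 4439, 7960, 2169, 1185 and 1650 CPM in the blood libraries, against 1756, 1317 and 2174 CPM in the bone marrow libraries, with overlap.

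The authors' deposited lists held 42 more accessible sites at gene starts. Those described here were chosen after their values were seen and include the starts of Ifi204 (-log10 adjusted p 4.18), Rsad2 (4.03), Ccl4 (3.58), Acod1 (2.54), Ccl6 (2.52) and Clec4n (2.35). Their RNA estimates were higher in blood in each case: Ifi204, an interferon-inducible DNA sensor, had 799, 2119, 20, 15.4 and 30.8 CPM in the blood libraries, against 0, 19.4 and 0 CPM in the bone marrow libraries, and Clec4n, which encodes the mannan receptor dectin-2, had 270.2, 315, 47.5, 33 and 0.145 CPM in the blood libraries, against 0, 8.66 and 13 CPM in the bone marrow libraries. Among the genes with these starts the tissues overlapped for all but Acod1. The Ccl4 estimate was -6.64 with only the 300-tag blood libraries. Of the 24 tested genes with a more accessible site at the start 21 were higher (87.5%), beside 53.9% for any merged site at a start. Mmp9 went the other way, with a more accessible site at its start (5.21) and an RNA log2 difference of -0.68 ± 0.76 (SE). Clec7a and Clec4d had sites 1.2 and 1.25 kb past their starts (3.89 and 3.95), and Nlrp3 had one 1.94 kb past its start (5.22). With Clec4n, 3 genes of C-type lectin receptors for fungal sugars thus had a more accessible site close to the start. Of 27 pattern recognition genes, 11 had a more accessible site within 50000 bp and 1 a less accessible one. Of 50 interferon-stimulated genes, 6 had a more and 1 a less accessible one. Over all genes tested these shares were 4.85% and 3.50%. Neighbouring genes can share sites, as Clec4n and Clec4d shared the same 3, so the genes in these counts are not independent.

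Some genes gathered several sites. The authors named Cd44 for 7 more accessible sites, with the highest -log10 value at 6.33. Marcks was named for 5, of which the highest among all more accessible sites (18.9, chr10:37337218-37337797) lay 198587 bp from its start. Cxcr5, a chemokine receptor best known from lymphocytes, was also named for 7, although its RNA was low in both tissues, with 0, 0.0714, 0.119, 6.34 and 0 CPM in the blood libraries, against 4.99, 4.06 and 8.8 CPM in the bone marrow libraries. Cxcr4 was named for 3 sites (6.43, 4.12 and 3.80), all more accessible in blood, where its RNA overlapped between the tissues. Csf3r had 3 more accessible sites at 33.6, 20.1 and 6.35 kb from its start and none less accessible. Csf1, the macrophage growth factor, was named for 4, and its RNA had 24.1, 140.4, 5.84, 12.6 and 0 CPM in the blood libraries, against 0, 0 and 2.86 CPM in the bone marrow libraries.

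Bcl2l11 was named for 4 more accessible sites (7.87, 7.09, 6.82 and 3.44). One of them, chr2:128429063-128429599, lies over the promoter of Morrbid, a long noncoding RNA known from mouse myeloid cells to hold down Bcl2l11. Morrbid was chosen after the sites were seen, and its RNA is not described here. The 250 bases upstream of its RefSeq start (chr2:128429352-128429601, minus strand, GRCm38.p6) hold a match to the PU.1 motif GAGGAAG at -17, in capitals.
Morrbid: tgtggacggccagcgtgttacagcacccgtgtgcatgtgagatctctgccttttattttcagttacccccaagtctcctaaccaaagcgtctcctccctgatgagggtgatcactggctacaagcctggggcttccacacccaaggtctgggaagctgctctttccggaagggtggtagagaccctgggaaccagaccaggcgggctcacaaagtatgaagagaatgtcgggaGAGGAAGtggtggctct
PU.1, the factor that sets up myeloid enhancers, has such letters in 13.6% of all windows. An AP-1 match in the same window starts at -1, runs past the printed bases and is among the AP-1 matches counted below.

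**Figure D5:**
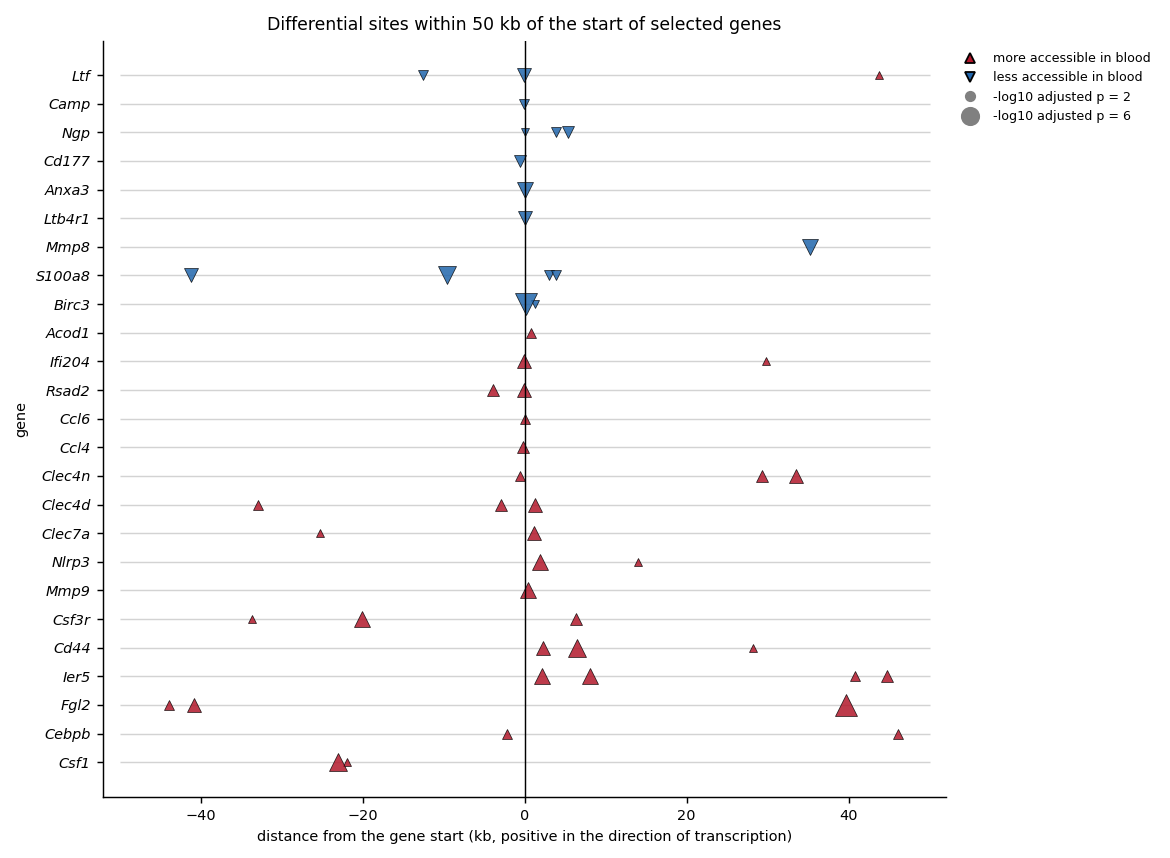
Position of differential sites within 50 kb of the start of 25 genes, in kb along the direction of transcription, pointing up where more accessible in blood and down where less accessible, with size growing with the -log10 adjusted p. Granule genes in the upper rows carry less accessible sites at or near the start, and the genes in the rows below carry mostly more accessible ones.

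Promoters in the 2 kinds of site also differed in letters. Of RefSeq windows of 300 bases, 24 windows of 22 genes overlapped a more accessible site and 111 windows of 104 genes a less accessible one. An AP-1 match was present in 8 of the 24 (33.3%) and 3 of the 111 (2.7%), beside 7.81% of all windows. A C/EBP match was present in 4.17% and 14.4%, beside 10.8%. A PU.1 match was present in 25% and 19.8%, beside 13.6%. An interferon response element was found in 1 of the 24 windows, that of Rsad2, and in 0 of the 111, beside 3.44%. A STAT match (TTCNNNGAA) was present in 8.33% and 3.6%, beside 8.3%, and an NF-kB match, spelled GGG, any 2 bases, TTTCC, in 8.33% and 1.8%, beside 1.63%. The NF-kB matches in more accessible sites all came from overlapping windows of 1 gene, Myadm. Windows of neighbouring genes can overlap too, as for Gm33323 and Gm33398, each with an AP-1 match. Motifs were read on both strands, and windows can overlap in these ways, so these shares are descriptions. Of the genes with such windows, 10 were tested in the first set and all 10 had a higher RNA estimate in blood, 3 at an unadjusted p under 0.05, with a median of 2.15. In the second set 47 were tested, 29 lower and 18 higher, with a median of -0.46.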

How the data were processed

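RNA was measured in 15 tissue libraries, of which 5 blood and 3 bone marrow libraries are compared here. The deposited table holds counts, per the file headers unnormalized read pairs per gene from featureCounts 1.5.0-p2. STAR and, for ATAC-seq, cutadapt, Bowtie2, MACS2, deepTools and DESeq2 are named in the submitters' processing notes, with builds mm10 and GRCm38. The deposited site lists hold the -log10 adjusted p of the authors' comparison, which is used as deposited. The deposited merged sites hold a score of unknown scale, which supports no result here, and a column of another unit, the width in bp.

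Of 50600 gene IDs, 50376 (99.6%) had a symbol. Counts were fitted with edgeR 4.0.16 (TMM, quasi-likelihood) in R 4.3.3 over all 15 libraries, whose common biological coefficient of variation was 1.86. Genes passed filterByExpr at a count minimum of 10, a total of 15 and a share of 0.7. Calls needed a Benjamini-Hochberg adjusted p under 0.05. DESeq2 1.42.0, limma 3.58.1 (voom), other scalings, other sets of libraries and each library left out were alternatives. Totals were 9.238 to 18.628 M read pairs, and floors of 3 counts cover counting error only, since reads carry no molecular identifiers. The procedure was tested on simulated data.

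Columns name a tissue, a tag and a number. They match no numbered sample, so libraries were treated as unpaired. Named genes were the called genes, the 10 non-overlapping genes with the smallest p in each direction (mean log2 CPM at least 4), up to 4 by level and 3 by p per list, the 6 with the highest level per length in each tissue, and 14 fixed genes. Genes named for their chromatin sites alone (Rsad2, Ifi204, Thbs1, Il1r2, Cxcr5, Morrbid and others) were chosen after the values were seen. Members, the 32 gene lists and tests were chosen with earlier results of these data known. Promoters come from a RefSeq table on GRCm38.p6, the build of the files, which matched 143 of 178 named genes. A gene that the rule also named is not reported here.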

Additional observations from a re-analysis of the deposited data

Results flagged for a closer look

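Among 75 genes and 10 list sums checked, 14 genes and 2 sums had 1 blood library set apart from the other 4, by a gap that takes up more than 0.71 of the range. For normally distributed values chance gives about 1 such gap in 20. That rate was not shown to hold for CPM, and every flagged value was the highest of the blood libraries. The number of flags was therefore not compared with chance. The bone marrow group, with 3 libraries, was not checked.

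Of the 14 genes, 8 were set apart in blood 300-m3, each with its highest value there. These were Ngp at 44900 CPM, Camp at 16630 CPM, Ltf at 8530 CPM, Chil3 at 1872 CPM, Cybb at 931.4 CPM, Cyba at 2077 CPM, Cebpe at 42.48 CPM and F730016J06Rik, an unnamed locus, at 7.763 CPM. The specific granule sum in the same library was 95030 CPM and its erythroid marker sum was 46.09 CPM, where the next blood library had 32580 and 8.161 CPM.

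Blood 100-m2 was set apart for Nek6 at 173.9 CPM, Csf1 at 140.4 CPM and Ddost at 1.356 CPM, which was at 0 in the other 4 blood libraries. Blood 100-m1 was set apart for Cxcr4 at 74.32 CPM and Csf1r at 142.3 CPM. Blood 300-m2 was set apart for Cxcr5 at 6.344 CPM.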

How the results depend on the processing

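The number of genes called moved most with the tool and with the filter on low counts. It was 2 in the fit reported, 1 with total-count scaling, 1 with RLE scaling, 328 with DESeq2, 43 with voom, 90 with voom and library weights, and 62 of 36284 genes with no filter on low counts. It was 0 with only the 2 tissues in the fit, 0 with only the tag-100 libraries, 0 with only the 300-tag blood libraries and 0 without blood 100-m1 and 100-m2 (539 higher and 242 lower at an unadjusted p under 0.05). It ranged from 0 to 2 when each library was left out in turn. The fits with only the 300-tag blood libraries, without blood 100-m1 and 100-m2, and with a block within the tag were chosen after seeing the data. The cause of these shifts was not tested.

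Blood and bone marrow libraries with the same number did not deviate together (r -0.016 to 0.018), so the number was not taken as a pairing. For the 2 pairs of blood libraries with the same number r was -0.301 and -0.129. Deviations from a shared group mean tend to correlate negatively by construction, so these 2 values cannot decide on a pairing. A replicate block by that number gave 2 calls, and within the tag-100 libraries the replicate block gave 6.

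Of 75 named genes, 63 kept their direction in every fit in which they were tested. Over 1562 such fits, 1454 kept direction and side of the threshold, 59 crossed to a call, 21 lost one and 28 reversed. S100a8 reversed to 0.016 with 2 tissues and 0.086 with the 300-tag blood libraries, and ranged from -0.18 to 0.052 with a library left out. S100a9 reversed to 0.048 with 2 tissues, 0.094 within the tag and 0.092 with the block within the tag, and ranged from -0.073 to 0.037 with a library left out. Cebpe reversed to 0.027 with the tag as a term. With only the 300-tag blood libraries, Ccl4 was at -6.64, Ifit1 at -0.51, Il1rn at -0.10, Cd14 at -1.01, Thbs1 at -0.13 and Il1r2 at -0.31. Without blood 100-m1 and 100-m2, Cxcl10 was at -10.98, Ifit1 at -1.15, Trem1 at -0.13, Cd14 at -0.64, Thbs1 at -0.52, Il1r2 at -0.074 and Mmp8 at 0.13.

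The interferon-stimulated median was 0.45 with only the 300-tag blood libraries and 0.77 without blood 100-m1 and 100-m2. At a -log10 adjusted p of 3 or more, 273 sites were more and 199 less accessible in blood. Within 500 bp of a gene start lay 3.58% of more accessible and 21.8% of all merged sites. Within 2500 bp lay 16.1% of more accessible, 32.9% of less accessible and 34.3% of all merged sites. The median RNA difference near more accessible sites was 0.51 with the 300-tag blood libraries, 0.48 without blood 100-m1 and 100-m2, and 4.53 at gene starts. Near all merged sites it was -0.20 with the block within the tag. Low input and amplification leave genes at 0 in whole libraries, so a value of 0 is a limit of detection.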
